A study of Danio rerio with 36 samples.

Results

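The collagen genes of the zebrafish were followed through RNA sequencing of 36 libraries in 12 groups of 3. A gene was taken as a collagen gene when the name that the count tables give it starts with col and a digit, whatever the case of the letters. This rule found 38 of the 32520 genes in the tables. By collagen type they comprise 13 fibrillar collagens, 8 FACITs (fibril-associated collagens with interrupted triple helices), 5 hexagonal network collagens, 4 chains of basement membrane collagen IV, 3 others of type XXVIII, 2 beaded filament collagens, 2 multiplexins and 1 transmembrane collagen. A further 19 genes carry a collagen symbol only in a separate table of gene names and are not among the members. COL12A1 names 2 members, which are told apart by their identifiers.

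Zebrafish wild type at sgsh were compared with fish homozygous for sgshΔex5-6 (here sgsh, TU strain), a deletion in the gene for sulfamidase, the lysosomal enzyme of heparan sulfate breakdown that is deficient in the childhood disorder MPS IIIA. Both genotypes were sequenced as whole embryos at 24 hpf (hours post fertilization), as larval heads at 5 dpf (days post fertilization), and as whole brains at 2, 3 and 18 months. At 2 months both genotypes were also sequenced with the stable transgene Tg(-3.5ubb:mTagBFP2-T2A-sgsh), in which the ubb promoter drives wild-type sgsh together with a blue fluorescent protein in all tissues. The labels give no other allele, agent or treatment for any group. A library pools 50 embryos, 50 heads or 3 brains, and sex was not considered, so that each value is an average over pooled animals. Nothing in the labels says that the 3 libraries of a group came from separate clutches, and p-values measure the spread between these libraries.

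Collagens are secreted proteins in which repeated glycine-containing chains wind into a triple helix. Fibrillar collagens I, II, III, V and XI form the fibrils of skin, bone, tendon, cartilage and notochord sheath, and FACITs such as collagens IX, XII and XIV bind to the fibril surface. Collagen IV forms the sheet of basement membranes, including those around brain vessels, where the multiplexins XV and XVIII are also found. In the adult brain collagens are made mainly by cells of the vessel wall and the meninges.

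Libraries held 24761341 to 26038889 counts (24 hpf), 17061799 to 17303538 (heads), 16200025 to 16594654 (2 months), 21340728 to 24678514 (3 months) and 22177654 to 22511711 (18 months). Markers of neurons summed to 3635 to 3896 TPM in the 2-month and 5177 to 5268 TPM in the 3-month wild-type brains and in the heads markers of skeletal muscle summed to 10974 to 11373 TPM. TPM is the count per kilobase of gene length, scaled to a sum of 1000000 per library, so that levels of different genes can be set side by side. The count of the sgsh gene itself was lower in sgsh than in wild-type libraries, without overlap, at 5 dpf and in all brains without the transgene, and 1834 to 3585 in the transgenic brains. Embryos gave 167 to 206 counts (sgsh) and 181 to 223 counts (wild type), so that their labels were not checked by it. The counts of transgenic wild-type and sgsh brains overlapped, so that their genotype labels were not checked either. At 2 months the skeletal muscle markers were raised in 4 of the 6 transgenic libraries, summing to 289.9 and 1165 TPM in wild-type replicates 1 and 2 and to 378 and 1409 TPM in sgsh replicates 1 and 3, against 40.4 to 139 TPM in wild-type brains without the transgene. The genes of duplicated pairs share sequence, and the spans of 15 members overlap that of another gene. In 8 of them that gene is on the other strand, among them col1a1a and col1a2. For others, among them col5a3b and col17a1a, it is on the same strand. How reads of such genes were split is not given in the sources used here for the 24 hpf, 3-month and 18-month counts.

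Collagen transcripts were abundant in embryos and heads and scarce in the brain. Summed over the 38 members, they reached 3703 to 4034 TPM in wild-type embryos and 4088 to 4573 TPM in wild-type heads. In wild-type brains the sum was 308 to 410.2 TPM at 2 months, 142 to 215 TPM at 3 months and 98.8 to 105 TPM at 18 months. Counting settings are given for the 2-month brains and the heads but not for the rest. The levels of the 2-month and 3-month brains were therefore set side by side without a test. Fibrillar collagens made up 64.3% to 64.7% of the collagen TPM in wild-type embryos and 59.5% to 60.3% in heads. In wild-type brains they made up 45.8% to 55.7% at 2 months, 47.4% to 62.7% at 3 months and 36.4% to 38.4% at 18 months. Collagen IV made up 4.19% to 4.65% in wild-type embryos and 3.16% to 3.25% in heads. In wild-type brains it made up 13.1% to 18% at 2 months, 6.33% to 8.74% at 3 months and 7.13% to 7.66% at 18 months. Because the samples are bulk tissue, fewer cells of a type and less RNA per cell cannot be told apart in any of these values.

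**Figure D1:**
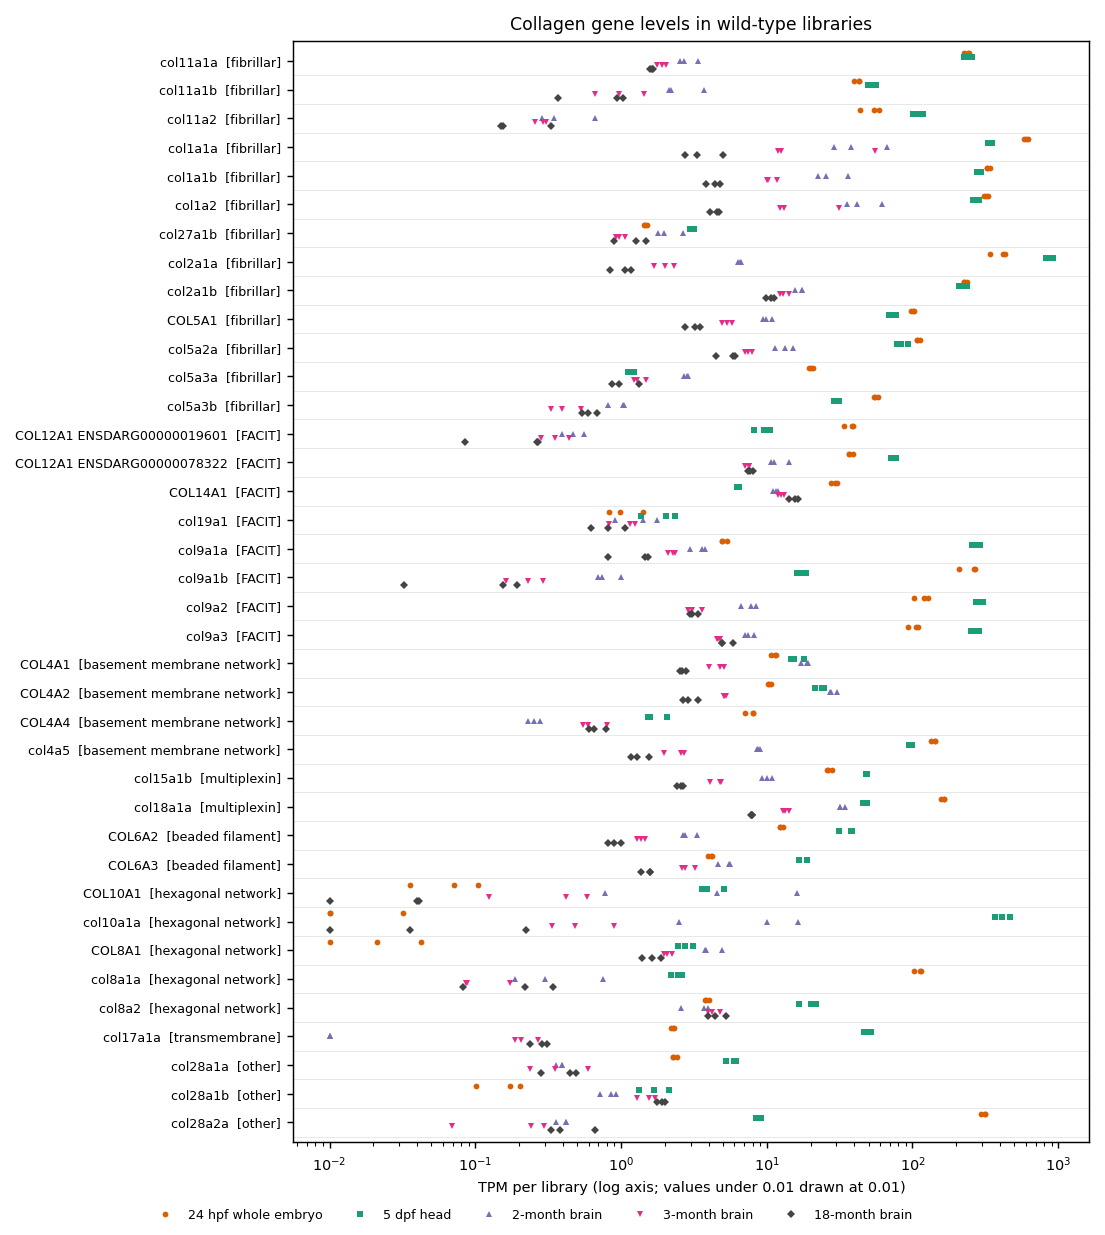
TPM of each of the 38 collagen genes in each wild-type library (log axis, 3 points per stage or tissue), grouped by collagen class. Most members sit furthest to the right in embryos or heads, whereas COL8A1 and col28a1b are higher in 3-month brains than in embryos. Values under 0.01 are drawn at 0.01, and counting settings are given for heads and 2-month brains only.

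Collagen I, the main collagen of skin and bone, held the top of the list by mean TPM in embryos and young brains, at 3 months through replicate 1. In wild-type embryos the 5 highest members by mean TPM were col1a1a (601), col2a1a (397), col1a1b (331), col1a2 (319.7) and col28a2a (308). In wild-type heads col2a1a, the main fibril chain of cartilage, led with a mean of 871 TPM, followed by col10a1a, whose mammalian counterpart marks hypertrophic cartilage, at 415, col1a1a at 343, col1a1b at 290.0 and col9a2 at 287 TPM. In 2-month wild-type brains col1a2, col1a1a, col18a1a, COL4A2 and col1a1b came first with means of 46.3, 44.6, 32.7, 28.4 and 28.1 TPM. At 3 months col1a1a (26.5 TPM) and col1a2 (18.9 TPM) still led by mean, ahead of col18a1a (13.4 TPM), col2a1b (13.1 TPM) and COL14A1 (12.5 TPM). That lead came from replicate 1, with 55.1 TPM of col1a1a and 31.3 TPM of col1a2. In replicates 2 and 3 col18a1a (12.8 and 13.3 TPM) was above col1a1a (12.5 and 11.9 TPM) and col1a2 (12.4 and 13.1 TPM). At 18 months the FACIT COL14A1 was first at a mean of 15.4 TPM, and col2a1b (10.6 TPM), col18a1a (7.89 TPM), COL12A1 ENSDARG00000078322 (7.7 TPM) and col5a2a (5.48 TPM) followed. The order within these lists rests on small differences in places. In wild-type embryos col1a1b and col1a2 overlapped (326 to 339 and 310.1 to 329 TPM), as did col1a2 and col1a1a in 2-month brains (35.6 to 62.1 and 29 to 67.1 TPM).

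Tested between wild-type embryos and wild-type 3-month brains, 32 of the 36 members tested were higher in embryos and 2 were lower, with a median log2 difference of 3.99. Among all 21531 genes tested, 45.8% were called higher and 45.0% lower, with a median of 0.02. Here called means an adjusted p under 0.05 from edgeR's quasi-likelihood test, with Benjamini-Hochberg adjustment over all genes tested. The largest difference was in col28a2a, a collagen XXVIII chain, with 314, 316 and 293 TPM in the embryo libraries and 0.242, 0.295 and 0.0689 TPM in the brain libraries (log2 fold change 10.66, standard error 0.112, adjusted p = 6.24e-18). The FACIT col9a1b had 208, 269 and 264 TPM in embryos and 0.293, 0.229 and 0.162 TPM in brains (log2 fold change 10.16, standard error 0.177, adjusted p = 6.97e-16), and the short-chain collagen col8a1a had 103, 115 and 112 against 0.0869, 0.0874 and 0.173 TPM (log2 fold change 9.93, standard error 0.129, adjusted p = 3.8e-17). In all 3 genes every embryo library lay far above every brain library. The next 7 by size were col2a1a, col11a2, col5a3b, col11a1a, COL12A1 ENSDARG00000019601, col4a5 and col11a1b, with log2 differences of 7.74, 7.62, 7.15, 7.06, 6.79, 5.95 and 5.45. In the opposite direction, COL8A1 was held by 3 counts over the 3 embryo libraries and 256 over the 3 brain libraries, a ratio of 98.1 in favour of the brain with a 95% counting interval of 33.2 to 479 (exact, counting error only). The type XXVIII chain col28a1b had 0.202, 0.101 and 0.173 TPM in embryos and 1.56, 1.72 and 1.29 TPM in brains (log2 fold change -3.13, standard error 0.284, adjusted p = 1.01e-07). Tissue, age and preparation differ together in this comparison and cannot be told apart.

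Between wild-type heads and wild-type 2-month brains, 31 of 38 members were higher in heads and 3 were lower, with a median log2 difference of 3.09 (all genes: 41.2% higher, 38.2% lower, median 0.02). The transmembrane collagen col17a1a, a hemidesmosome component of epidermis in mammals, had 46.7, 50.1 and 51.7 TPM in heads and no count in any wild-type 2-month brain. Set against 3 counts per brain library, its level was at least 592-fold higher in heads than in these 2-month brains. It was detected in the older wild-type brains, whose counting settings are not given. There it had 0.186 to 0.27 TPM at 3 months and 0.236 to 0.311 TPM at 18 months. Cartilage genes stood out by size. The log2 difference was 8.15 for col11a2, 7.23 for col2a1a, 6.56 for col11a1a, 6.48 for col9a1a, 5.60 for col10a1a, 5.40 for col9a2 and 5.34 for col9a3, with standard errors between 0.071 (col9a3) and 0.337 (col10a1a). The next were col5a3b at 5.13, col28a2a at 4.59 and col9a1b at 4.59. For col10a1a the brain libraries themselves ranged from 2.49 to 16.3 TPM. Lower in heads were col5a3a (1.22, 1.12 and 1.24 against 2.7, 2.83 and 2.86 TPM, log2 difference -1.06), COL14A1 (6.43, 6.43 and 6.29 against 11.6, 11.9 and 11.1 TPM, log2 difference -0.69) and COL8A1 (3.13, 2.75 and 2.47 against 4.97, 3.78 and 3.83 TPM, log2 difference -0.42). The call of COL8A1 was not made by DESeq2, nor without brain replicate 1 or head replicate 2 or 3 (adjusted p 0.0115 to 0.0995 over all alternatives). As above, tissue, age and preparation cannot be told apart.

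The copies of duplicated genes took different shares at different stages. Of the TPM of col9a1a and col9a1b together, col9a1a held 1.83 to 2.33% in wild-type embryos, 93.9 to 94.1% in wild-type heads and 88.6 to 92.8% in 3-month wild-type brains. Thus col9a1b was the main copy of this FACIT chain in embryos and col9a1a in heads, with no overlap between the libraries. For collagen II, col2a1a held 60.1 to 65.2% of the pair in wild-type embryos, 79.7 to 79.9% in heads and 11.9 to 14% in 3-month brains. Brain collagen II transcripts were mostly col2a1b, at 12.4 to 14.1 TPM in 3-month wild-type brains, where col2a1a was at 1.68 to 2.29 TPM. COL12A1 ENSDARG00000078322 held 49 to 52% of the COL12A1 pair in wild-type embryos, 88 to 89.7% in heads and 94.2 to 96.4% in 3-month brains. Of the collagen V chains col5a3a and col5a3b, col5a3a held 26.2 to 26.6% in wild-type embryos, 3.69 to 3.91% in heads and 69.8 to 81.7% in 3-month brains. These shares are described without a test.

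Ratios between chains that assemble into one molecule were also read. The alpha 1 chains of collagen I (col1a1a and col1a1b together) stood at 2.9 to 2.93 times col1a2 in TPM in wild-type embryos, 2.25 to 2.36 times in heads, 1.45 to 1.66 times in 2-month, 1.67 to 2.13 times in 3-month and 1.62 to 2.14 times in 18-month wild-type brains. COL4A1 and COL4A2, whose products form the common collagen IV trimer, are neighbours on chromosome 9 (8634229 to 8670158 on the minus strand and 8761099 to 8882901 on the plus strand, in the coordinates of the count tables, build GRCz11 by the submitters' processing notes). COL4A2 stood at 0.903 to 0.957 times COL4A1 in wild-type embryos, 1.35 to 1.56 times in heads and 1.02 to 1.26 times in 3-month brains.

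In sgsh embryos at 24 hpf collagen transcripts were raised broadly but modestly. Of the 34 members tested, 22 were called higher and 1 lower, where 10.8% of all 20175 genes were called higher and 10.9% lower. The members' median log2 fold change was 0.20, against 0.00 over all genes tested. Summed collagen TPM spanned 4458 to 4674 (sgsh embryos) and 3703 to 4034 (wild-type embryos), without overlap. In 22 of the 34 members tested the sgsh libraries lay above every wild-type library, as they did in 18.0% of all genes tested.

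Cartilage and notochord chains were among those that changed most in the embryos. The fibrillar chain col11a2, a partner of collagen II in cartilage fibrils, had 82.8, 78.9 and 73.6 TPM in sgsh and 43.5, 59.3 and 54.5 TPM in wild-type embryos (log2 fold change 0.57, standard error 0.0679, adjusted p = 1.49e-06). The main chain of those fibrils, col2a1a, had 556, 522 and 482 against 341, 429 and 421 TPM (log2 fold change 0.38, standard error 0.0616, adjusted p = 8.86e-05). The FACIT col9a1b, which decorates collagen II fibrils, had 370.1, 349 and 322 against 208, 269 and 264 TPM (log2 fold change 0.48, standard error 0.0654, adjusted p = 9.89e-06). All 3 genes were lowest in wild-type replicate 1, and each sgsh library was above the highest wild-type library. The other chains of collagen IX rose too, by log2 0.44 (col9a1a), 0.38 (col9a2) and 0.34 (col9a3). Of the other chains of collagens II and XI, col11a1b rose by 0.28, col11a1a by 0.20 and col2a1b by 0.18.

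Of the other types, both beaded filament chains, the type I chains and 2 of the 4 collagen IV chains rose, and neither multiplexin was called. For collagen VI, the beaded filament around muscle fibres, COL6A2 had 18.7, 16.2 and 17.1 TPM in sgsh and 12.9, 12.4 and 12.3 TPM in wild-type embryos (log2 fold change 0.46, standard error 0.0488, adjusted p = 3.01e-07). Its partner COL6A3 had 5.97, 5.18 and 5.92 against 3.97, 4.11 and 4.18 TPM (log2 fold change 0.47, standard error 0.0543, adjusted p = 1.06e-06). The wild-type values of both chains lay close together, and the sgsh values were all above them. The type I chains rose by smaller steps, col1a1b by log2 0.23, col1a1a by 0.19 and col1a2 by 0.19, and 3 of the 4 of collagen V by 0.23 (col5a3b), 0.19 (COL5A1) and 0.17 (col5a2a), whereas col5a3a was not called (-0.05). The collagen IV chains COL4A1 and COL4A2 rose by 0.23 and 0.25, while COL4A4 (-0.12) and col4a5 (0.05) were not called. Further rises were called for col28a1a (0.50), col17a1a (0.43) and COL12A1 ENSDARG00000078322 (0.21). Adjusted p-values of the members that rose were between 3.01e-07 (COL6A2) and 0.00364 (COL4A2). The 1 member called lower was the FACIT COL14A1, with 29, 25.5 and 25.5 against 30.4, 29.4 and 27.6 TPM (log2 fold change -0.14, standard error 0.0421, adjusted p = 0.023), and here the groups overlapped. DESeq2 did not call it, nor was it called without sgsh replicate 2 or 3 or wild-type replicate 1 or 2 (adjusted p 0.00250 to 0.116 over all alternatives). COL8A1, col10a1a, col28a1b and COL10A1 had too few counts to be tested in embryos.

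Markers of some other tissues moved with the embryo result. All 6 skeletal muscle markers were called higher in sgsh embryos and summed to 14697 to 15572 TPM against 10944 to 12548 TPM in wild type. Of the cartilage markers, 6 of 7 tested were called higher, with sums of 603 to 649 against 514 to 549 TPM. Of the mural markers, which mark the vessel wall, 4 of 8 were called higher, with sums of 124 to 137 against 115 to 120.4 TPM. Of the neuron markers 5 of 7 were called higher, and the endothelial markers summed to 97.5 to 105 TPM against 133 to 140.0 TPM with 2 of 6 called in each direction. Of the notochord markers 1 of 5 was called higher and 1 lower, with sums of 133 to 148 against 135 to 138 TPM. Of the fibroblast and meningeal markers 2 of 9 were called higher and 1 lower, and of the epidermis markers 1 of 7 higher and 3 lower. No marker of these lists was at 0. Their part in the collagen result was not tested.

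In sgsh heads at 5 dpf 13 of 38 members were called higher and 2 lower, where 5.71% of all 21627 genes were called higher and 8.67% lower. The median log2 fold change was 0.14 over the members and 0.00 over all genes. Summed collagen TPM spanned 4551 to 4966 (sgsh heads) and 4088 to 4573 (wild-type heads), with overlap. The lowest adjusted p was that of the collagen V chain col5a3b, with 42.7, 46.3 and 42.5 TPM in sgsh and 31.1, 29.1 and 30.4 TPM in wild-type heads (log2 fold change 0.57, standard error 0.049, adjusted p = 9.86e-06). Its copy col5a3a was not called (0.19, adjusted p = 0.418). The hexagonal network gene COL10A1 had 8.98, 6.26 and 5.96 against 5.05, 3.91 and 3.6 TPM (log2 fold change 0.79, standard error 0.174, adjusted p = 0.00819), while its far more abundant relative col10a1a had 430.0, 441 and 397 against 465, 413 and 368 TPM and was not called (0.06, adjusted p = 0.655).

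Among the cartilage chains of the heads, col2a1a had 978, 1033 and 968 TPM in sgsh and 924, 857 and 829.7 TPM in wild type (log2 fold change 0.22, standard error 0.0466, adjusted p = 0.00588). The groups did not overlap, though the lowest sgsh and the highest wild-type library were close. Smaller rises of the same kind were called in col9a1a (0.21), col9a2 (0.20), col11a1a (0.18), col11a2 (0.19) and col2a1b (0.17), both of the latter with overlapping TPM. Outside cartilage, rises were called in col28a2a (0.38), col1a1b (0.21), col18a1a (0.21), COL6A3 (0.20) and col4a5 (0.16). Lower in sgsh heads was COL8A1, a chain of the network around endothelial cells and in the eye, with 1.68, 1.61 and 1.44 TPM against 3.13, 2.75 and 2.47 TPM (log2 fold change -0.79, standard error 0.147, adjusted p = 0.00278). COL12A1 ENSDARG00000078322, a FACIT of tendon and fascia, had 64.8, 63.1 and 63.8 against 77.3, 75.5 and 70.8 TPM (log2 fold change -0.19, standard error 0.0395, adjusted p = 0.00557). Every sgsh library lay below every wild-type library in both. Cartilage markers summed to 942 to 998 TPM in sgsh and 842 to 979.6 TPM in wild-type heads, with 2 of 8 called higher. Fibroblast markers summed to 235 to 249.7 and 229 to 249 TPM, with 3 of 9 called higher. Epidermis markers summed to 11722 to 12621 TPM in sgsh and 9830 to 10800 TPM in wild-type heads, with 2 of 7 called higher and 2 lower. Skeletal muscle markers summed to 10199 to 10706 and 10974 to 11373 TPM, with 0 of 6 called. The sums of the last 2 lists did not overlap, and the part of these lists was not tested. Without sgsh replicate 2 the calls fell from 15 to 8 (6 higher, 2 lower), without sgsh replicate 1 to 12 and without wild-type replicate 2 or 3 to 10. The call of col11a2 was lost in 5 of the 6 fits without 1 library (adjusted p up to 0.177). Those of col2a1b and col4a5 were lost in 4 of these fits, that of col11a1a in 3, those of COL6A3 and col9a2 in 2 and that of col9a1a in 1.

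**Figure D2:**
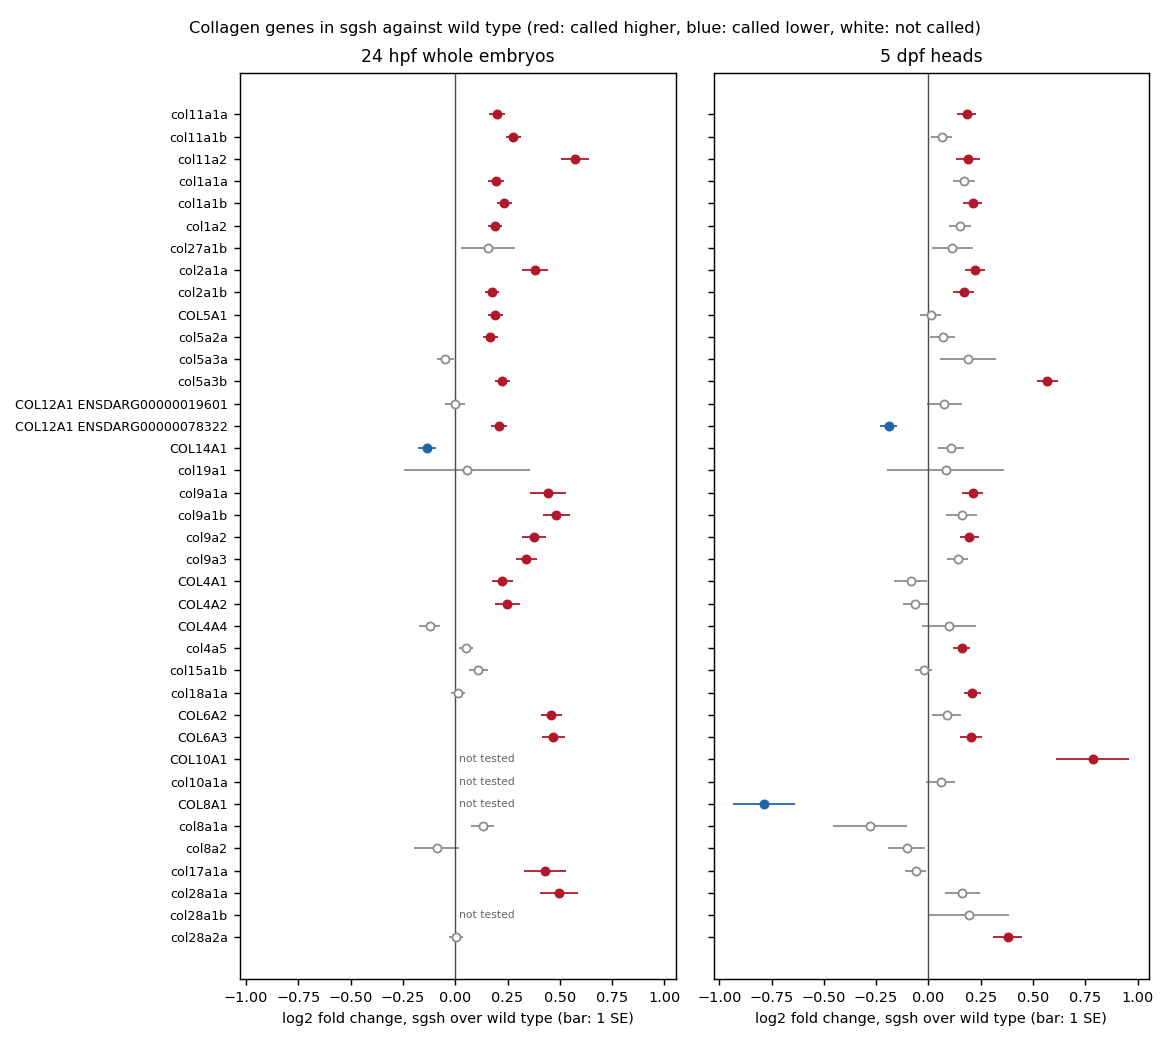
Log2 fold change of each collagen gene in sgsh over wild type at 24 hpf (left) and 5 dpf (right), with bars of 1 standard error, red for genes called higher, blue for genes called lower and white for genes not called. At 24 hpf 22 genes are red and 1 is blue, at 5 dpf 13 are red and 2 are blue, and COL8A1 at 5 dpf stands furthest to the left at -0.79.

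In the 3-month brain 2 of 34 members were called higher in sgsh and none lower, where 2.01% of all 19922 genes were called higher and 0.878% lower. The median over the members was 0.01 on the log2 scale, DESeq2 called 3 higher and none lower, and 7 had an unadjusted p under 0.05. The multiplexin col18a1a, whose C-terminal fragment is endostatin, had 16.8, 17.5 and 15.8 TPM in sgsh and 14.2, 12.8 and 13.3 TPM in wild-type brains (log2 fold change 0.36, standard error 0.0594, adjusted p = 0.013). COL8A1, which lies on chromosome 22 (28647130 to 28668442, minus strand), the chromosome that also carries sgsh, had 3.22, 3.14 and 4.21 against 2.23, 1.97 and 2.08 TPM (log2 fold change 0.79, standard error 0.152, adjusted p = 0.0247). In both genes the groups did not overlap. The call of COL8A1 was lost without any 1 wild-type library and without sgsh replicate 3 (adjusted p up to 0.121), and that of col18a1a without wild-type replicate 2 and in a joint fit with the 18-month brains (adjusted p up to 0.0850). Collagen I was not called at 3 months: col1a1a had 21.4, 20.7 and 10.4 TPM in sgsh and 55.1, 12.5 and 11.9 TPM in wild type, where replicate 1 stood far above the other two. The FACITs col9a1b and col19a1, col8a1a and col17a1a were too low to be tested in this comparison. Red blood cell markers summed to 752 to 806 TPM in sgsh and 1235 to 1921 TPM in wild-type brains, and their part was not tested.

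In the 18-month brain 5 of 33 members were called higher in sgsh and 3 lower (all 20116 genes: 4.52% higher, 2.2% lower), with a median log2 fold change of 0.00. The 5 that rose were 2 of the 4 collagen IV chains, 1 of the 2 multiplexins, 1 of the 2 beaded filament chains and COL8A1. COL4A2 had 4.49, 3.72 and 4.37 TPM in sgsh and 2.66, 2.86 and 3.39 TPM in wild-type brains (log2 fold change 0.60, standard error 0.127, adjusted p = 0.0344), and COL4A1 had 3.86, 3.11 and 3.55 against 2.61, 2.78 and 2.56 TPM (log2 fold change 0.50, standard error 0.107, adjusted p = 0.0347). The multiplexin col18a1a had 11.3, 8.43 and 11.1 against 7.82, 7.98 and 7.87 TPM (log2 fold change 0.48, standard error 0.103, adjusted p = 0.0357). In these 3 genes sgsh replicate 2 was the lowest sgsh library and still above all wild-type libraries. COL8A1 had 2.4, 2.85 and 3.3 against 1.4, 1.87 and 1.64 TPM (log2 fold change 0.91, standard error 0.189, adjusted p = 0.0326). COL6A3 had 2.34, 2.33 and 1.95 against 1.59, 1.37 and 1.58 TPM (log2 fold change 0.64, standard error 0.116, adjusted p = 0.0217), again without overlap.

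The 3 members that were lower in 18-month sgsh brains come from other classes. The FACIT COL14A1 had 12, 12.1 and 11.3 TPM in sgsh and 14.2, 15.7 and 16.4 TPM in wild type (log2 fold change -0.29, standard error 0.068, adjusted p = 0.0463). The minor fibrillar chain col11a1b had 0.251, 0.16 and 0.191 against 1.03, 0.37 and 0.944 TPM (log2 fold change -1.88, standard error 0.411, adjusted p = 0.0368), and col28a2a had 0.102, 0.0639 and 0.175 against 0.329, 0.381 and 0.664 TPM (log2 fold change -1.89, standard error 0.436, adjusted p = 0.0429). The last gene rests on few reads, 4 to 11 counts per sgsh library. Endothelial markers moved with the genes that rose, summing to 78.9 to 88.3 TPM in sgsh and 55.2 to 71.6 TPM in wild-type brains (2 of 6 tested called higher), whereas mural markers summed to 70.8 to 75.7 and 66.5 to 76.2 TPM (1 of 8 called higher). Cartilage markers summed to 40.5 to 50.9 TPM in sgsh and 61.1 to 67 TPM in wild type, where 2 of 6 were called higher and 1 lower. The part of these markers in the result was not tested. The number of calls moved with single libraries. With wild-type replicate 1 or 3 left out 0 members were called, with wild-type replicate 2 or sgsh replicate 2 left out 1, with sgsh replicate 3 left out 2, and with sgsh replicate 1 left out 10. With same-numbered libraries taken as blocks, which the labels do not pair, none of the 8 calls was kept. In all fits together adjusted p-values of the 8 members reached at most 0.148.

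**Figure D3:**
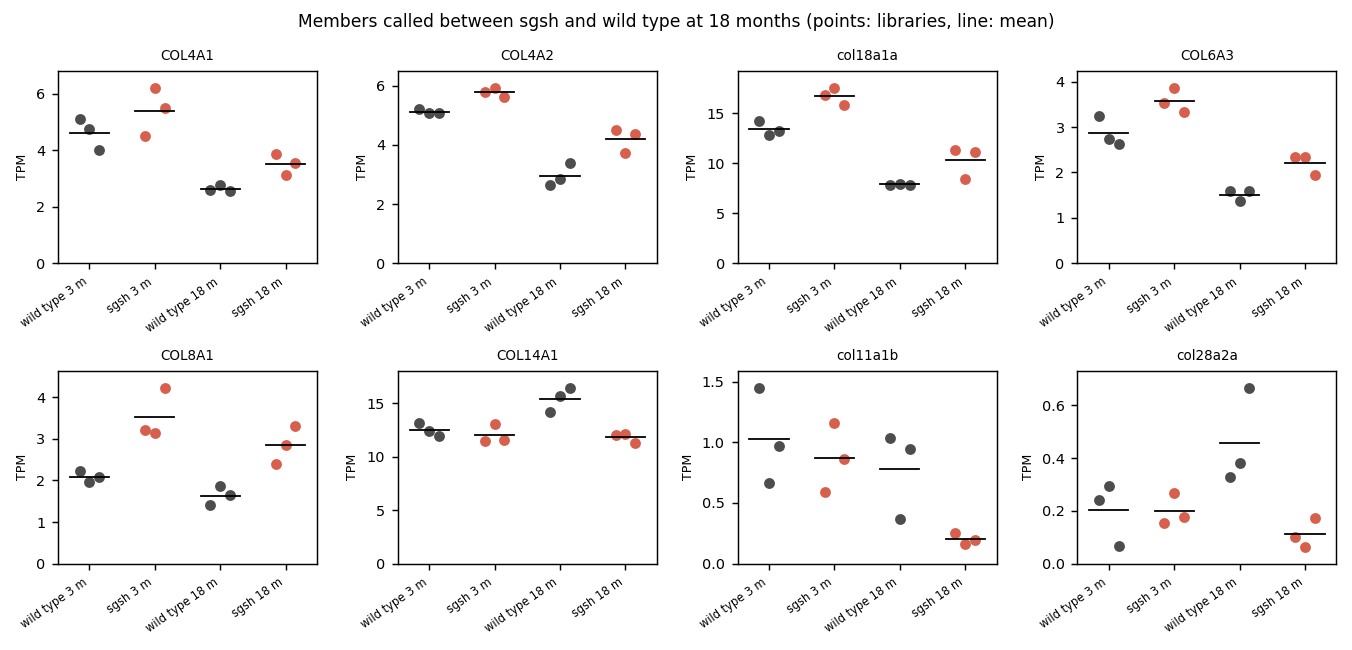
TPM per library (axes from 0) of the 8 members called between sgsh and wild type at 18 months, in wild-type (grey) and sgsh (red) brains of 3 and 18 months, with a line at each mean. At 18 months the red and grey points do not overlap in any panel. COL4A1, COL4A2, col18a1a and COL6A3 are lower at 18 than at 3 months in both genotypes.

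Whether the effect of genotype differed between 3 and 18 months was tested as an interaction over the 12 libraries. No member was called (0 of 36, where 0.126% of all 20608 genes were called), and DESeq2 called none either. An unadjusted p under 0.05 was found in 7 members, and the lowest adjusted p was 0.202, in COL14A1 (interaction -0.29, standard error 0.0899). For col18a1a and COL8A1, called at both ages, the interaction was 0.10 and 0.10 with standard errors of 0.121 and 0.246.

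With age, brain collagen transcripts declined. Between wild-type brains of 3 and 18 months 14 of 36 members were called lower at 18 months and 1 higher, where 11.7% of all 20608 genes were called lower and 9.14% higher. The median log2 change was -0.35 over the members and 0.01 over all genes. Among the members called, the chains of collagen I had the largest declines. The estimates for COL10A1 (-3.50) and col10a1a (-2.63) were also large but not called (adjusted p = 0.08 and 0.0933). col1a1a had 55.1, 12.5 and 11.9 TPM at 3 months and 5.01, 3.3 and 2.73 TPM at 18 months (log2 fold change -2.79, standard error 0.595, adjusted p = 0.00595), col1a2 had 31.3, 12.4 and 13.1 and 4.56, 4.67 and 4.07 TPM (log2 fold change -2.04, standard error 0.346, adjusted p = 0.00141), and col1a1b had 11.7, 10.2 and 10 and 4.78, 4.43 and 3.84 TPM (log2 fold change -1.24, standard error 0.158, adjusted p = 0.00021). Replicate 1 of the 3-month brains held the highest value of each, and without it the log2 change of col1a1a was -1.66, still called. That library also had the highest sums of skeletal muscle markers (56.5 TPM) and of fibroblast and meningeal markers among the 3. No 18-month library reached the lowest 3-month library in any of the 3 genes.

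Of the 4 collagen IV chains 3 declined in ageing wild-type brains, as did both multiplexins, while COL4A4 was not called (0.13). COL4A1, COL4A2 and col4a5 changed by log2 -0.75, -0.74 and -0.81, the multiplexins col15a1b and col18a1a by -0.79 and -0.71, and COL6A3 by -0.86. Of these, col18a1a had 14.2, 12.8 and 13.3 TPM at 3 months and 7.82, 7.98 and 7.87 TPM at 18 months, with narrow and well separated groups. Also lower were col2a1a (-0.89), col9a1a (-0.76), COL5A1 (-0.71), col5a2a (-0.40) and col2a1b (-0.26). COL14A1 alone was called higher, with 13.2, 12.4 and 11.9 TPM at 3 months and 14.2, 15.7 and 16.4 TPM at 18 months (log2 fold change 0.35, standard error 0.0634, adjusted p = 0.00206). Of the fibroblast and meningeal markers 4 of 9 were called lower with age and none higher, with sums of 122 to 148 TPM at 3 months and 110.2 to 118 TPM at 18 months, while endothelial markers summed to 61.7 to 69.4 and 55.2 to 71.6 TPM. Myelin markers summed to 9343 to 10302 and 5972 to 6753 TPM (4 of 4 called lower) and radial glia markers to 6567 to 6832 and 4952 to 5181 TPM (3 of 5 called lower). Skeletal muscle markers summed to 15.9 to 56.5 TPM at 3 months and 4.2 to 6.94 TPM at 18 months (3 of 5 called lower). Of the cartilage markers 2 of 7 were called lower. The part of these lists was not tested, and age and preparation of the libraries cannot be told apart. The call of col9a1a was lost without 3-month replicate 1 or 2 or 18-month replicate 2 (adjusted p up to 0.0695).

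**Figure D4:**
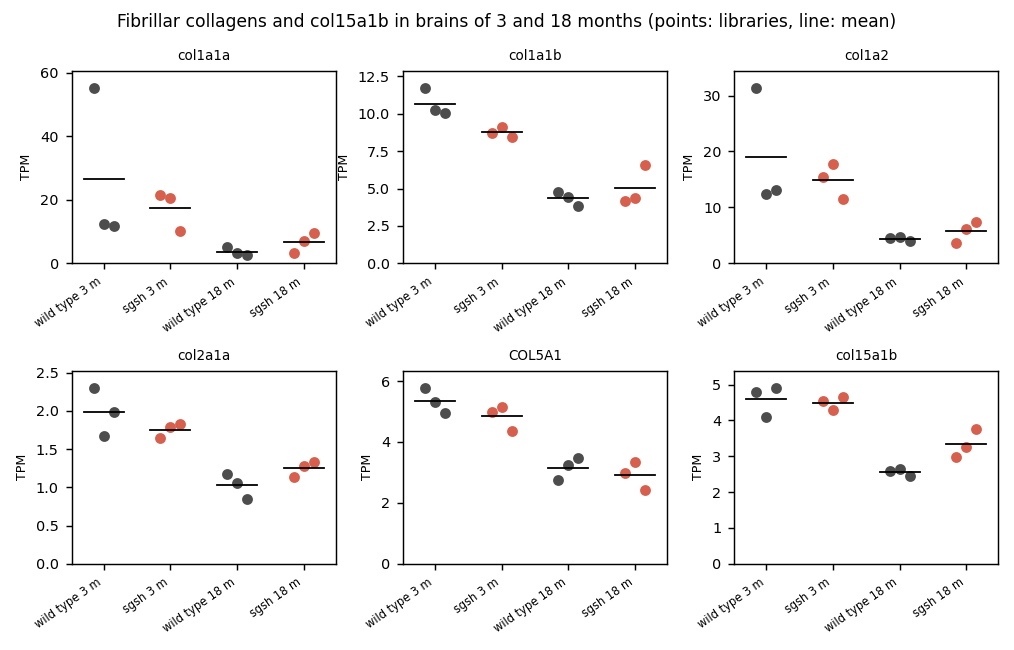
TPM per library of 6 collagen genes in wild-type (grey) and sgsh (red) brains of 3 and 18 months, with a line at each mean. Replicate 1 of the 3-month wild-type brains stands apart in col1a1a at 55.1 TPM and in col1a2 at 31.3 TPM, and in all 6 genes the wild-type points at 18 months lie below those at 3 months.

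In sgsh brains 11 of 36 members were called lower at 18 than at 3 months and none higher (all genes: 9.6% lower, 9.87% higher), with a median log2 change of -0.35 over the members and -0.02 over all genes. DESeq2 gave the same counts. The fibrillar chain col11a1b had 0.592, 1.16 and 0.859 TPM at 3 months and 0.251, 0.16 and 0.191 TPM at 18 months (log2 fold change -2.01, standard error 0.432, adjusted p = 0.00715). Of collagen I, col1a2 (15.4, 17.8 and 11.5 and 3.64, 6.11 and 7.38 TPM, log2 change -1.28) and col1a1b (8.69, 9.1 and 8.46 and 4.14, 4.36 and 6.6 TPM, log2 change -0.70) were called. col1a1a had 21.4, 20.7 and 10.4 and 3.33, 7.1 and 9.54 TPM, with a log2 change of -1.28 that was not called (adjusted p = 0.125). The other calls were col9a1a (-1.02), col4a5 (-0.76), COL5A1 (-0.64), col5a3a (-0.64), col18a1a (-0.61), COL6A3 (-0.60), COL4A1 (-0.53) and COL4A2 (-0.37). The call of col1a2 was lost without 3-month sgsh replicate 1 or 2, and that of col5a3a without 3-month replicate 2 or 18-month replicate 2 (adjusted p up to 0.0709 and 0.0625). Myelin markers summed to 8665 to 8799 TPM at 3 months and 5012 to 6112 TPM at 18 months (4 of 4 called lower) and fibroblast and meningeal markers to 130.4 to 136 and 111 to 123 TPM (2 of 9 called lower). Skeletal muscle markers summed to 12 to 19.1 TPM at 3 months and 4.81 to 32.4 TPM at 18 months (1 of 5 called higher). The highest sum was in 18-month replicate 3, which also had the most col1a1a of the 18-month sgsh libraries. Of the cartilage markers 2 of 7 were called lower, and the part of these lists was not tested. COL14A1 was not called in sgsh brains (11.5, 13 and 11.5 TPM at 3 months, 12, 12.1 and 11.3 TPM at 18 months).

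At 2 months, without the transgene, 1 of 36 members was called higher in sgsh brains and 1 lower, where 0.354% of all 19749 genes were called higher and 0.486% lower. COL12A1 ENSDARG00000078322 had 3.64, 7.74 and 5.61 TPM in sgsh and 10.7, 11.2 and 14.3 TPM in wild-type brains (log2 fold change -1.11, standard error 0.183, adjusted p = 0.0126), with no overlap. The type XXVIII chain col28a1b had 1.6, 1.82 and 1.74 against 0.858, 0.924 and 0.716 TPM (log2 fold change 1.02, standard error 0.199, adjusted p = 0.0278), also with no overlap. Neither was called when the 6 libraries were fitted alone. Leaving out any 1 of the 6 libraries compared ended the call of col28a1b (adjusted p up to 0.116), and that of COL12A1 ENSDARG00000078322 was lost without wild-type replicate 3 (adjusted p up to 0.0784 over all alternatives). Collagen I varied widely among these libraries: col1a1a had 32.3, 112 and 66.2 TPM in sgsh and 37.7, 29 and 67.1 TPM in wild-type brains, and sgsh replicate 2, the highest, also had the highest sums of mural (170.1 TPM) and fibroblast and meningeal markers (218 TPM).

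Among the 2-month brains that carry the transgene no member was called between sgsh and wild type (0 of 36), by edgeR or by DESeq2, and 1 had an unadjusted p under 0.05. Over all genes 0.0304% were called higher and 0.0% lower. COL12A1 ENSDARG00000078322 had 10.4, 11 and 10.6 TPM in transgenic sgsh and 11.3, 11 and 10.3 TPM in transgenic wild-type brains (log2 fold change -0.02, adjusted p = 0.996), with overlapping groups. The interaction of genotype with transgene called no member (0 of 36, all genes 0.127%), nor did DESeq2, with 4 members at an unadjusted p under 0.05. The lowest adjusted p was that of COL12A1 ENSDARG00000078322 (interaction 1.09, standard error 0.255, adjusted p = 0.151). Without sgsh replicate 2 this gene was called (1.38, adjusted p = 0.0266). That library had the highest value of its group (7.74 against 3.64 and 5.61 TPM), so that leaving it out enlarged the estimate. For col28a1b the interaction was -0.89 (standard error 0.27, adjusted p = 0.278).

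In wild-type brains 3 of the 4 collagen IV chains were lower with the transgene. Of 36 members 6 were called lower and 1 higher with the transgene, where 8.45% of all 19749 genes were called lower and 6.79% higher. COL4A1 had 11.9, 11.5 and 15.1 TPM with and 19, 19.2 and 17.2 TPM without the transgene (log2 fold change -0.53, standard error 0.114, adjusted p = 0.00714), COL4A2 had 20.9, 17.7 and 23.7 and 30.4, 27.1 and 27.6 TPM (log2 fold change -0.46, standard error 0.0983, adjusted p = 0.0071), and col4a5 had 5.97, 5.69 and 7.15 and 8.66, 8.92 and 8.52 TPM (log2 fold change -0.48, standard error 0.0983, adjusted p = 0.00532). In each the transgenic libraries lay below the others without overlap. The multiplexin col18a1a had 21.5, 18.6 and 24.5 and 31.7, 34.7 and 31.9 TPM (log2 fold change -0.62, standard error 0.126, adjusted p = 0.00552). COL6A3 (log2 fold change -0.57) and COL5A1 (log2 fold change -0.48) were also lower. COL6A3 was not called without wild-type replicate 1 or 3 or transgenic replicate 3, and COL5A1 not without these or transgenic replicate 2 (adjusted p up to 0.0707 and 0.0867). Without transgenic replicate 2, the library of this group with the most muscle marker signal, 7 members were called, of which 6 are among the 7 called with all libraries. The member called higher was col28a1b, at 1.82, 1.7 and 1.37 TPM with the transgene (log2 fold change 0.95, standard error 0.2, adjusted p = 0.0065). Endothelial markers summed to 97.5 to 116 TPM with and 116 to 122 TPM without the transgene (2 of 6 called lower), fibroblast and meningeal markers to 154 to 158 and 178 to 191 TPM (2 of 9 called lower) and red blood cell markers to 1454 to 2269.9 and 2827 to 5007 TPM (3 of 6 called lower). Radial glia markers summed to 5618 to 5982 TPM with and 7399 to 7756 TPM without the transgene (2 of 5 called lower). Myelin markers summed to 10026 to 11407 and 8575 to 9169 TPM (1 of 4 called higher). Neuron markers summed to 4064 to 4125 and 3635 to 3896 TPM (3 of 7 called higher). The part of these lists in the result was not tested.

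In sgsh brains 2 of 36 members were called higher with the transgene and 3 lower, neither above the share over all genes (8.85% higher, 9.51% lower). COL12A1 ENSDARG00000078322 had 10.4, 11 and 10.6 TPM with and 3.64, 7.74 and 5.61 TPM without the transgene (log2 fold change 0.93, standard error 0.184, adjusted p = 0.00361), so that the transgenic libraries were close together and above all others of this genotype. The fibrillar chain col2a1b had 19.1, 22.1 and 25 and 14.3, 18.4 and 15.6 TPM (log2 fold change 0.47, standard error 0.0983, adjusted p = 0.00519). Lower with the transgene were col4a5 (6.03, 5.29 and 5.54 and 9.61, 7.89 and 8.62 TPM, log2 fold change -0.62, adjusted p = 0.000892) and COL4A1 (13.9, 12.9 and 10.5 and 18, 17.9 and 16.2 TPM, log2 fold change -0.47, adjusted p = 0.0122). COL4A2 was not called here (22.5, 21.7 and 21 and 28.2, 27.4 and 23.6 TPM, log2 fold change -0.27, adjusted p = 0.0752). COL8A1 was called lower with overlapping groups (3.89, 2.73 and 3.19 and 7.16, 8.09 and 3.19 TPM, log2 fold change -0.90, adjusted p = 0.0327), and the call was lost when the 6 libraries were fitted alone and without sgsh replicate 1 or 2 or transgenic replicate 2 or 3 (adjusted p up to 0.131). Without replicate 3 of the transgenic sgsh brains, the library with the most muscle marker signal, 3 members were called in place of 5, and COL4A1 was not among them (adjusted p = 0.0543). Mural markers summed to 99.3 to 103 TPM with and 106 to 170.1 TPM without the transgene (4 of 8 called lower), endothelial markers to 112 to 117 and 127 to 139.8 TPM (2 of 6 called lower). Red blood cell markers summed to 1593 to 1791 and 2981 to 3532 TPM (1 of 6 called higher, 4 lower) and myelin markers to 11105 to 12394 and 6895 to 8150.1 TPM (3 of 4 called higher). Radial glia markers summed to 5805 to 6054 and 6152 to 7227 TPM (2 of 5 called lower). Neuron markers summed to 3965 to 4287 and 3706 to 3945 TPM (3 of 7 called higher). The part of these lists was not tested. The 2-month comparisons share their groups, and each is given by its own values.

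**Figure D5:**
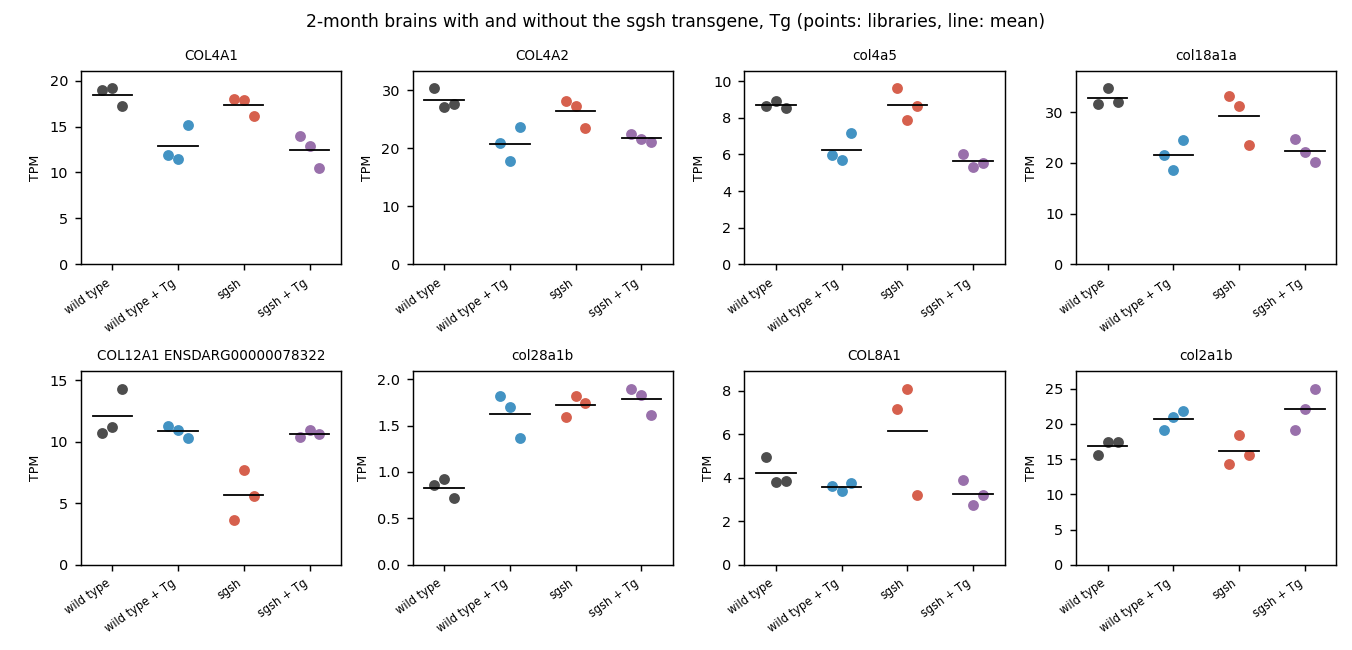
TPM per library of 8 collagen genes in 2-month brains of wild-type and sgsh fish without and with the sgsh transgene (Tg), with a line at each mean. COL4A1 and col4a5 are lower with the transgene in both genotypes, and COL12A1 ENSDARG00000078322 is lowest in sgsh brains without the transgene, between 3.64 and 7.74 TPM.

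Across the comparisons of genotype, transgene and age, 7 members were never called. The matching share of all genes was not computed, so this count only describes the members. COL4A4, a collagen IV chain, had mean levels of 7.74 TPM in wild-type embryos and 0.684 TPM in 18-month brains, with log2 differences between -0.12 and 0.41 over the 10 comparisons. COL12A1 ENSDARG00000019601 ranged from -0.82 to 0.51 and the corneal network chain col8a2, at 19.5 TPM in wild-type heads and 4.51 TPM in 18-month brains, from -0.27 to 0.33. The fibrillar col27a1b ranged from -0.29 to 0.35 and stayed between 0.987 TPM (3-month brains) and 3.02 TPM (heads) in wild-type means. For col10a1a the differences ran from -2.63 to 1.47 over 8 comparisons, none called, with brain libraries between 0 and 29.9 TPM. The FACIT col19a1 could be tested in 8 comparisons (-0.30 to 0.18) and col8a1a in 2 (-0.28 and 0.13), with lowest adjusted p-values of 0.561 and 0.0885.

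Genes that make, bind and degrade collagen were read from the same fits, in 6 lists that hold 94 genes. In sgsh embryos 23 of 86 tested were called higher and 5 lower, where 10.8% and 10.9% of all genes were. Among those called higher, the collagen chaperone serpinh1b (Hsp47) rose by log2 0.46, the crosslinking enzyme loxl1 by 0.45, the fibril-binding proteoglycans prelp by 1.20 and lum by 0.37, and the collagen receptor subunit itga11a by 0.44. Of the genes of modification and folding 7 of 24 were called higher and 2 lower, and of those of processing and crosslinking 2 of 14 higher and 2 lower. In sgsh heads 7 of 91 were called higher and 8 lower, near the shares of all genes (5.71% and 8.67%), among them the collagenase mmp13a (0.95), the gelatinase mmp9 (-0.88), lum (0.37) and p4hb (-0.37), a subunit of prolyl 4-hydroxylase. DESeq2 called fewer of the 94 genes than edgeR, 18 in embryos and 7 in heads, in either direction.

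In the brain, 7 of 89 of these genes were called higher in sgsh and 1 lower at 3 months (all genes 2.01% and 0.878%), and 10 of 89 higher and 3 lower at 18 months (all genes 4.52% and 2.2%). DESeq2 called 8 at 3 months and 18 at 18 months, in either direction. The collagen-degrading cathepsin ctsk changed by log2 0.40 at 3 and 1.13 at 18 months, prelp by 0.79 and 1.70, the membrane-bound metalloproteinase mmp14b by 0.34 and 0.84, and the cartilage regulator sox9b by -0.71 and -0.74. Between the ages, 28 of 89 were called lower at 18 months and 2 higher in wild-type brains (all genes 11.7% and 9.14%), and 18 lower and 4 higher in sgsh brains (all genes 9.6% and 9.87%). The chaperones serpinh1b and serpinh1a changed by -1.88 and -1.76 in wild type, and serpinh1a by -1.13 in sgsh. With the transgene 15 of 88 were called lower and 5 higher in wild-type brains (all genes 8.45% and 6.79%), and 6 lower and 9 higher in sgsh brains, near the shares of all genes (9.51% and 8.85%). At 2 months without the transgene 2 of 88 were called, both lower in sgsh, timp2b (-0.67) and fn1a (-0.55). Over all genes 0.486% were called lower and 0.354% higher. With the transgene 0 of 88 were called by edgeR or DESeq2, with 8 at an unadjusted p under 0.05 (all genes 0.0304% higher, 0.0% lower). The interaction of genotype with age called 0 of 89 by edgeR (all genes 0.126%) and 1 by DESeq2, with 17 at an unadjusted p under 0.05. The interaction of genotype with transgene called timp2b (1 of 88, all genes 0.127%), an inhibitor of metalloproteinases, at 0.71.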

How the data were processed

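Counts per gene deposited by the authors were analysed. Per the file headers the 5 dpf and 2-month reads were counted with featureCounts 2.0.1, paired, reverse-stranded and with a mapping quality of at least 10. The settings behind the table of the other 18 libraries are not given in the sources used here. The submitters' processing notes name the build GRCz11 and also HISAT2, Bowtie2 and RSEM.

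The quasi-likelihood test of edgeR 4.0.16 (R 4.3.3) was applied after TMM normalization to genes that passed filterByExpr (minimum count 10, total 15), with Benjamini-Hochberg adjustment over all genes tested and a threshold of 0.05. Genotype at 24 hpf, 5 dpf, 3 and 18 months and the stage comparisons were fitted on their 6 libraries, the other comparisons on the 12 libraries of 2 months or of 3 and 18 months. For the stage comparisons the written plan named other libraries by mistake. Alternatives were DESeq2 1.42.0, RLE, no filter, at least 10 counts in every library, a replicate block, fits without each library, a joint fit and fits of 6 libraries alone. The edgeR step was tested on simulated data. TPM was computed here from counts and the gene lengths in the files. An exact permutation test of 3 against 3 libraries cannot go below 0.1, so p-values come from the fits. Counts carry counting error, largest for genes of few reads.

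Members, gene lists and comparisons were chosen with earlier results of these data known. Named are, per comparison, called members with non-overlapping groups (up to 10 per direction by size), all members called for genotype or transgene, the 5 highest by TPM per stage, and chains or copies beside them.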

Additional observations from a re-analysis of the deposited data

Results flagged for a closer look

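Some members were called in opposite directions for sgsh against wild type at different stages. Calls were listed here only where the groups did not overlap. These differences between stages were not tested, and stage, tissue and library preparation cannot be told apart. COL8A1 had a log2 fold change of -0.79 in heads at 5 dpf, 0.79 in 3-month brains and 0.91 in 18-month brains. COL12A1 ENSDARG00000078322 had 0.21 in embryos at 24 hpf, -0.19 in heads and -1.11 in 2-month brains. For col11a1b the values were 0.28 in embryos and -1.88 in 18-month brains, and for col28a2a 0.38 in heads and -1.89 in 18-month brains. No alternative fit lost these calls in embryos or heads. In brains, the call of COL8A1 was lost in 4 of 12 alternatives at 3 months and 6 of 12 at 18 months. At 18 months that of col11a1b was lost in 5 of 12 and that of col28a2a in 7 of 11. That of COL12A1 ENSDARG00000078322 at 2 months was lost in 2 of 18.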

How the results depend on the processing

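Over 108 pairs of a named gene and a comparison, no alternative reversed a direction. Fits without 1 library kept 761 of 858 calls, and the other alternatives kept 561 of 578. By setting, calls lost were 2 with DESeq2, 0 with RLE, 2 without a filter, 1 with 10 counts in every library, 1 in the joint fit and 3 in fits of 6 libraries alone. Counts of called members moved by over 1.5 times in these cases: from 2 to 1 for genotype at 3 months in the joint fit, and from 2 to 0 for genotype at 2 months in the 6 libraries alone. Same-numbered libraries were not paired by the labels, and the correlations of their deviations ran from -0.362 to 0.172. With the replicate block 100 of 108 calls were kept, and the count for genotype at 18 months went from 8 to 0 (over all genes from 1352 to 290). The counts without 1 library ranged from 22 to 24 at 24 hpf, 8 to 17 at 5 dpf, 0 to 2 at 3 months, 0 to 10 at 18 months, 0 to 2 at 2 months, 3 to 7 for the transgene in sgsh and 5 to 10 in wild type, 12 to 17 for ageing in wild type and 9 to 14 in sgsh, 0 to 1 for the interaction with the transgene, 35 to 36 for embryos against brains and 33 to 35 for heads against brains. They stayed at 0 for genotype with the transgene and for the interaction with age. Over all genes, fits of genotype at 18 months without 1 library called 189 to 3453. Depth limits col8a1a and col9a1b in the 3-month and 18-month brains, where neither had enough counts to be tested.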

Other observations

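The 19 genes with a collagen symbol only in the separate table of gene names showed the following. In sgsh embryos 3 of 18 tested were called higher, col6a4a (log2 0.51), a second col19a1 (0.44) and col6a1 (0.31), and col4a3 lower (-0.26). Over all genes 10.8% were called higher and 10.9% lower. In sgsh heads the anchoring fibril gene col7a1 (0.50), the FACIT col14a1b (0.50) and col4a6 (0.18) were called higher (3 of 19, all genes 5.71%). In sgsh brains at 3 months col4a6 was called higher (0.47, 1 of 17, all genes 2.01%). At 18 months 0 of 17 were called by edgeR or DESeq2, with 4 at an unadjusted p under 0.05 (all genes 4.52% called higher, 2.2% lower). With the transgene 1 of 18 tested was called higher and 3 lower in wild-type brains (all genes 6.79% and 8.45%). In sgsh brains 2 of 18 were called higher and 2 lower with it (all genes 8.85% and 9.51%). Among these calls the FACIT col21a1 was higher in wild-type (1.55) and sgsh brains (1.36), and the multiplexin col18a1b lower (-0.82 and -0.65). With age 4 of 18 were called lower and 1 higher in wild-type brains (all genes 11.7% and 9.14%). In ageing sgsh brains 4 of 18 were called lower and 0 higher (all genes 9.6% and 9.87%). Of these, col18a1b changed by -1.92 in wild-type and -1.01 in sgsh brains, and col6a1, col16a1 and col4a6 were called lower in both genotypes.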
